A study of Mus musculus with 12 samples.

Results

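The offspring of taurine-supplemented dams were examined for genes that differed from the controls in the same direction in liver and quadriceps muscle, and for genes that differed in opposite directions. All 12 of the 12 samples of the series entered, because each of the 4 groups of 3 was needed. C57BL/6 dams received a normal protein diet (NP, 20% casein) and drank either water or water with 1% taurine (NP+tau) from day 1 of pregnancy until birth, so all pups shared the normal protein diet and none was protein restricted. Tissue was taken from the offspring 4 weeks after birth, weeks after the supplement ended, and liver and quadriceps were hybridised to Affymetrix mouse arrays. Each pup came from a different dam, the study took both tissues from the same animals, and each group was a mixture of sexes by the study's account. For every probe set the mean of the 3 NP samples was subtracted from the mean of the 3 NP+tau samples within a tissue, in log2 units, and only these differences were set side by side, since the tissues had been normalised separately.

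Taurine is a sulphur-containing amino acid that the fetus obtains largely from the mother through the placental taurine transporter. In liver it is made from cysteine and joined to bile acids, and in skeletal muscle, where it is very abundant, it acts as an osmolyte and modifies mitochondrial transfer RNAs. Liver and muscle grow fast in the first weeks of life, and both use imprinted growth regulators such as Igf2 and the genes of the Dlk1-Meg3 region.

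The labelled tissues carried their own markers. Over the 12 arrays the 8 hepatocyte genes (Alb, Apoa1 and others) lay between 10.94 and 15.05 in liver against 3.70 to 9.36 in muscle, and the 9 muscle fibre genes (Acta1, Ckm and others) between 13.10 and 14.91 in muscle against 3.48 to 6.61 in liver. The median absolute deviation from the median array of its tissue was 0.434 for liver NP+tau replicate 1 and 0.078 to 0.177 for the other livers, so this array stood apart, and results that rest on it are given with and without it. Xist, the RNA of the inactive X chromosome, lay between 10.85 and 11.78 in all NP samples and in NP+tau replicate 1, and between 5.07 and 5.96 in NP+tau replicates 2 and 3 of both tissues. The Y-linked gene Eif2s3y ran the other way, from 8.55 to 9.37 in NP+tau replicates 2 and 3 and at most 3.78 elsewhere. All 3 NP samples of a tissue therefore had the female pattern and 2 of its 3 NP+tau samples the male one. Diet and sex cannot be told apart in replicates 2 and 3, and NP+tau replicate 1 was the supplemented sample with the controls' pattern.

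Opposite differences outnumbered shared ones when all arrays were used. Of 25622 probe sets above a limit on dim values in both tissues, 4187 (16.3%) had a higher NP+tau mean in both tissues and 5681 (22.2%) a lower one in both. The mean was higher in liver and lower in muscle for 6483 (25.3%), and lower in liver and higher in muscle for 9271 (36.2%). The differences thus had the same sign for 38.5%, and across probe sets, which are not independent and come from the same animals, liver and muscle differences had r = -0.12 and rho = -0.25. The share of the same sign was 27.6% of the 4747 probe sets that differed by at least 0.25 in both tissues and 34.0% of the 636 that differed by at least 0.5. Of the 34 that differed by at least 1 in both, 20 had the same sign, 12 of them higher and 8 lower.

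This balance rested on liver NP+tau replicate 1. Without it the same sign was found for 49.0% of all probe sets, for 54.4% of the 3067 with at least 0.25, for 58.4% of the 450 with at least 0.5 and for 76.3% of the 38 with at least 1, and r was 0.12 (rho 0.02). The opposite signs also varied with brightness. With the probe sets split by brightness into 10 groups of equal size, in the dimmest group the median difference was 0.14 in liver and -0.12 in muscle and 27.9% shared a sign, whereas in group 8 the medians were -0.24 and 0.13 and in the brightest group 49.7% shared a sign. Counted by gene, with the brightest probe set for each of 12803 genes, 17.1% were higher in both tissues, 19.5% lower in both, 25.4% higher in liver and lower in muscle and 38% lower in liver and higher in muscle. With each array centred on its own median these shares were 21.1%, 17.4%, 37.2% and 24.3%, and without liver NP+tau replicate 1 they were 26.4%, 21.3%, 23.5% and 28.7%. The gene medians of -0.07 in liver and 0.04 in muscle became 0.08 and -0.04 after centring, so small opposite differences changed side with the scaling.

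**Figure D1:**
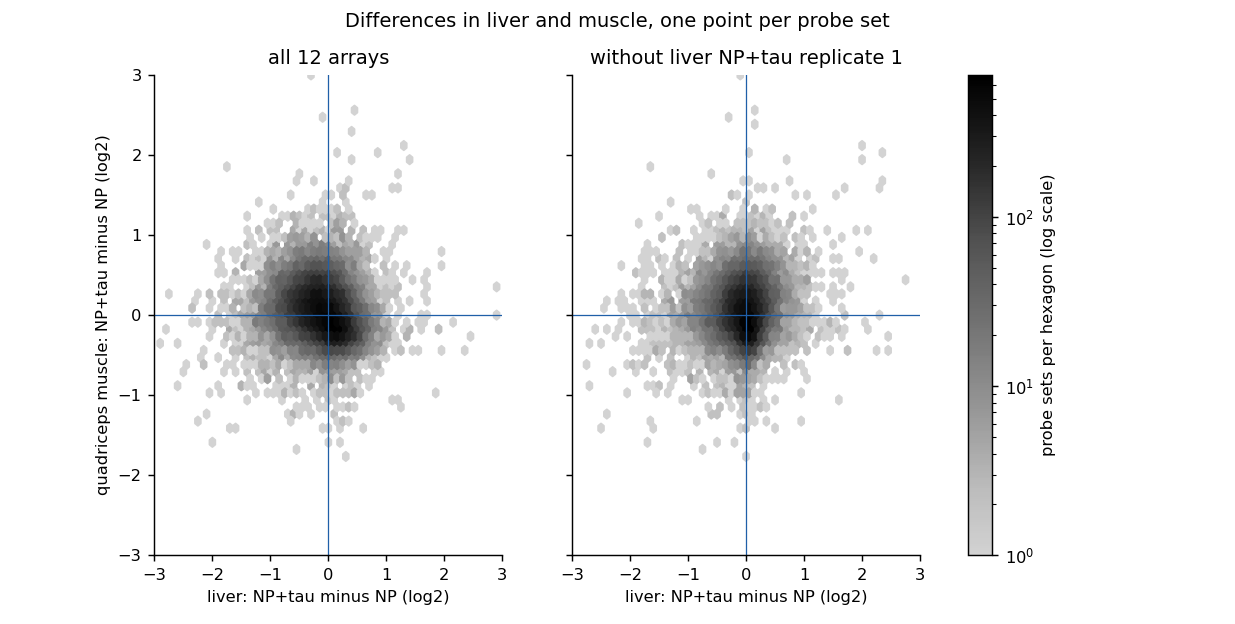
Liver difference (x axis) against muscle difference (y axis), NP+tau minus NP in log2 units, with the number of probe sets in each hexagon shaded on a log scale, for all 12 arrays and without liver NP+tau replicate 1. With all arrays the cloud leans to the quadrant of lower liver and higher muscle values (36.2% of probe sets), and without that array the 4 quadrants are nearly even (same sign in 49.0%). The axes run from -3 to 3 and the few probe sets beyond are not drawn.

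No probe set passed an adjusted p of 0.05 in limma, either for the average of both tissues (0 of 25622, 1220 or 4.76% at an unadjusted p under 0.05) or for the difference between the tissues (0 of 25622, 1999 or 7.8% unadjusted). Within liver alone it was 0 of 29274 (1372 or 4.69% unadjusted) and within muscle alone 0 of 29274 (1793 or 6.12%). Of the 1220, 404 had the higher mean in NP+tau (1.58%) and 816 the lower (3.18%). Of the 1999, the muscle difference was above the liver difference for 1371 (5.35%) and below it for 628 (2.45%). The adjusted p in limma was 0.96 or 0.97 for the average of every gene named below as shared, and 0.54 for the tissue difference of every gene named as opposite, so none of these differences passed the test against the spread between replicates and all are given as descriptions. In simulated data with the same spread and independent noise, the test of the average recovered 72% of differences of 1 and 93% of differences of 2. The test between tissues recovered 10% and 55%, so with 3 animals a group such tissue differences were often missed even there. The 2 tests also called 23 and 7 unchanged probe sets. In the real arrays many probe sets move together, as in liver NP+tau replicate 1, so these shares need not hold for them.

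Imprinted growth genes had mostly lower means with taurine. They are listed for expression from 1 parental allele in at least some tissue and for a part in fetal and early postnatal growth. Of 21 measured genes, 10 had lower means in both tissues (19.5% of all genes did), 2 higher in both, 6 higher in liver and lower in muscle and 3 the reverse, with medians of -0.21 in liver and -0.25 in muscle. At an unadjusted p under 0.05 of the average, 8 of 21 were lower and 0 higher, against 3% and 1.71% of all genes. The shares were 42.9% to 52.4% lower in both when samples were left out, against 47.6% with all. Left out were liver NP replicate 1, liver NP+tau replicate 1, or the liver and muscle of 1 replicate number. No muscle array was left out alone.

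Igf2 on chromosome 7, the fetal growth factor, had signals of 12.97, 12.72 and 12.12 in NP muscle and 11.79, 11.23 and 11.41 in NP+tau muscle. In liver it was dim, at 6.67, 6.51 and 6.10 against 6.43, 6.01 and 5.85. The muscle groups did not overlap and the liver groups did, and the differences were -1.13 in muscle and -0.33 in liver (average -0.73 ± 0.18 SE, n = 3 per group). Igf2r, the receptor that clears Igf2, differed by -0.83 in liver and -0.25 in muscle, and Grb10, which restrains insulin and Igf1 receptor signalling, by -1.27 and -0.15.

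Peg3, a paternally expressed zinc finger gene also on chromosome 7, was at 11.05, 10.89 and 9.08 in NP liver and 7.84, 8.95 and 8.51 in NP+tau liver. In muscle it was at 11.58, 10.73 and 10.14 against 9.82, 9.98 and 10.07. Every NP+tau sample lay below every NP sample in both tissues, narrowly so for replicate 3 of the controls, with differences of -1.91 and -0.86 (average -1.38 ± 0.36), and all 3 Peg3 probe sets were lower in both. Plagl1, a zinc finger regulator of imprinted genes, was likewise apart in both tissues, with differences of -1.27 in liver and -0.56 in muscle (average -0.91 ± 0.33). Dcn, the matrix proteoglycan decorin, differed by -0.77 and -0.42 (average -0.59 ± 0.18) and was also apart in both. It is counted in the collagen and matrix list too, and allelic expression was not measured here.

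The genes of the Dlk1-Meg3 region on chromosome 12 differed mainly in muscle. Meg3, a maternally expressed long non-coding RNA, was at 12.97, 13.21 and 13.04 in NP muscle and 12.20, 10.93 and 12.43 in NP+tau muscle, and at 7.99, 7.15 and 6.92 against 6.65, 6.81 and 6.86 in liver. The groups did not overlap in either tissue on this probe set (differences -1.22 and -0.58, average -0.90 ± 0.26), but of 10 Meg3 probe sets all 10 were lower in muscle and 5 in liver. Rian, its neighbouring non-coding RNA, differed by -1.58 in muscle and 0.18 in liver. Dlk1, the paternally expressed membrane ligand of the region, was at 8.26, 7.54 and 6.77 in NP muscle and 6.60, 5.52 and 6.45 in NP+tau muscle. The Dlk1 samples did not overlap in muscle (-1.34), while in liver, where the gene was dim at 4.50 to 5.15, the difference was 0.26 (muscle minus liver -1.59 ± 0.51). Cdkn1c, an imprinted inhibitor of the cell cycle, was among the 2 genes with higher means in both tissues, by 0.33 in liver and 0.19 in muscle.

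**Figure D2:**
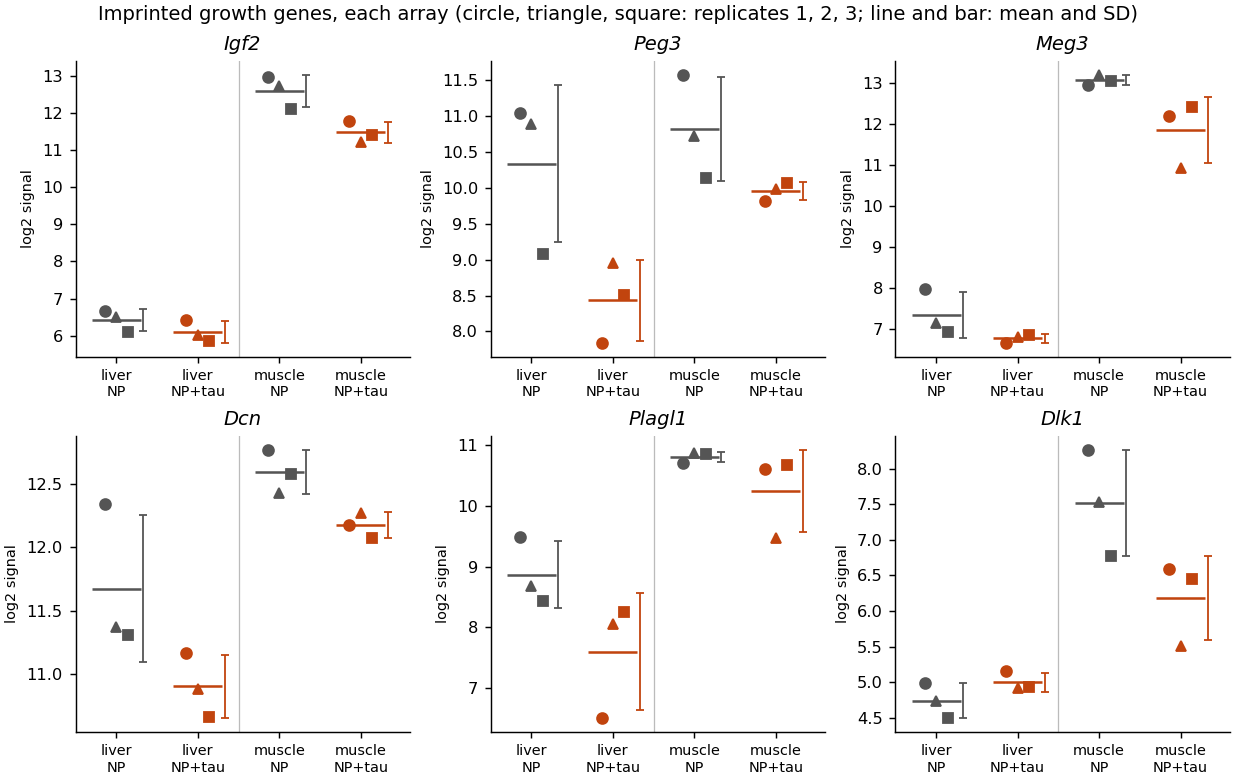
log2 signal (y axis) of 6 genes of the imprinted growth list on each array by tissue and group, where circle, triangle and square are replicates 1, 2 and 3, the line is the group mean and the bar its SD (n = 3). Peg3, Meg3, Dcn and Plagl1 have no NP+tau sample above an NP sample of the same tissue, Igf2 separates in muscle only, and Dlk1 lies lower in NP+tau muscle but not in liver.

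Immediate early genes, the fast transcriptional response to growth factors and stress, were lower in both tissues for 12 of 25 measured members and higher in both for 1, with medians of -0.60 in liver and -0.14 in muscle. The average had an unadjusted p under 0.05 for 10 of 25, all lower (3% of all genes), and the tissue difference for 8 of 25, with the muscle difference above the liver difference in 7 (6.02% of all genes) and below it in 1 (2.58% of all genes). Fos, a subunit of the AP-1 transcription factor, was at 8.52, 7.29 and 6.80 in NP liver and 5.66, 4.58 and 5.001 in NP+tau liver, and at 8.91, 9.11 and 9.69 against 8.57, 8.83 and 8.48 in muscle. The groups were apart in both tissues, by -2.46 and -0.61 (average -1.53 ± 0.29). Egr1, a zinc finger immediate early factor, was at 10.31, 9.43 and 8.90 in NP liver and 7.08, 6.66 and 8.94 in NP+tau liver, so that 1 supplemented liver lay among the controls. In muscle Egr1 was at 9.61, 9.72 and 9.76 against 7.96, 8.02 and 8.28, without overlap (differences -1.99 and -1.61, average -1.80 ± 0.35). With all arrays the adjusted p of the Egr1 average in limma was 0.96. Without liver NP+tau replicate 3, the very sample that lay among the controls, the average was -2.14 with an adjusted p of 0.0444. Apart from fits with Xist as a covariate, no other alternative for a named gene passed. Gadd45b, a growth arrest gene, differed by -0.57 and -1.23, and Junb, another AP-1 subunit, by -1.59 and -0.44.

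Other members of the same family ran in opposite directions. Of the 25, 9 had lower liver and higher muscle means (38% of all genes) and 3 the reverse (25.4%). Nr4a1, an orphan nuclear receptor induced by exercise in muscle, was at 6.93, 7.35 and 7.01 in NP liver and 5.87, 6.33 and 6.48 in NP+tau liver, and at 9.17, 10.30 and 10.16 against 11.19, 10.41 and 11.04 in muscle. No sample overlapped in either tissue and the differences were -0.87 and 1.002 (muscle minus liver 1.87 ± 0.44). Atf3, a stress-induced transcription factor, differed by -0.49 in liver and 1.73 in muscle, and Dusp1, a phosphatase of MAP kinases, by -1.38 and 0.42.

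Macrophage and Kupffer cell markers were lower in both tissues for 8 of 10 genes (19.5% of all genes), with medians of -1.15 in liver and -0.37 in muscle. An unadjusted p under 0.05 for the average was found for 7 of 10, all lower (3% of all genes). In muscle Cd5l reached the limit of 4.49 only in NP samples (at most 4.17 in NP+tau), so its lower mean there does not support a direction. Marco and Timd4, which had higher muscle means, reached it only in NP+tau replicate 3. Fewer cells of a type and less RNA per cell cannot be told apart in these tissue samples. The mean over the 10 genes was 9.90, 9.01 and 9.28 in NP liver and 8.60, 7.55 and 8.47 in NP+tau liver, and 6.11, 5.82 and 6.32 against 5.87, 5.57 and 6.02 in muscle. The liver groups were apart and the muscle groups overlapped. C1qa, a complement subunit made by macrophages, differed by -1.21 and -0.59, and Clec4f, the Kupffer cell lectin, by -0.72 and -0.22, although in muscle Clec4f was near the lowest signals of the array (4.71 to 5.22). Marco, a scavenger receptor of Kupffer cells, was at 10.26, 9.23 and 9.77 in NP liver against 7.99, 6.91 and 8.22 in NP+tau liver and stayed between 4.04 and 4.55 in muscle (differences -2.04 and 0.16). Neutrophil markers moved with the liver comparison too: the mean of 8 genes was 9.72 in liver NP replicate 1, 6.57 and 6.64 in the other NP livers and 5.18 to 5.62 in NP+tau livers. The mean of 5 erythroid genes was 6.79, 6.00 and 6.57 in NP livers and 5.66, 5.51 and 5.89 in NP+tau livers, also apart. Their part in the other results was not tested.

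Other genes were low in both tissues without any overlap between groups. On the brightest probe set of each gene, 53 of 12803 genes (0.414%) were lower without overlap in both tissues and 30 (0.234%) higher, while 15.3% did not overlap in liver and 15.9% in muscle. Genes were named on whichever probe set without overlap had the smallest p, which was not always the brightest, so not all are among those counted. By this order the lower ones began with Sbsn, encoding the secreted protein suprabasin, at 5.54, 5.44 and 5.45 in NP liver, 5.29, 4.90 and 4.89 in NP+tau liver, 6.66, 6.59 and 6.38 in NP muscle and 5.76, 5.81 and 5.63 in NP+tau muscle (average -0.63 ± 0.11). Sirpa, the myeloid receptor for CD47, followed with differences of -0.62 in liver and -0.58 in muscle (average -0.60 ± 0.12), and all 3 of its probe sets were lower in both. Tgfbi, a matrix protein induced by TGF-beta, differed by -1.13 and -0.69, Wfdc17, a small secreted protein of macrophages, by -1.31 and -0.91, and Nedd4, a ubiquitin ligase, by -0.73 and -0.97. Pdgfra, the platelet-derived growth factor receptor of fibroblasts, differed by -1.43 and -0.69, although its other probe set was at 0.05 in liver. Arglu1, an RNA-binding coactivator, differed by -0.67 and -1.001, with its other probe set at 0.02 in muscle.

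Kdm6a, an X-linked histone demethylase that escapes X inactivation, was also apart in both tissues, by -1.19 in liver and -0.75 in muscle. Only 2 of its 3 probe sets were lower in both, with liver differences from -1.19 to 0.29. On the named probe set Kdm6a was at 8.17, 7.64 and 7.75 in NP liver against 6.19, 7.12 and 6.68 in NP+tau liver, and at 8.79, 8.42 and 8.25 against 8.11, 7.30 and 7.79 in muscle. NP+tau replicate 1, the supplemented animal with Xist at the controls' level, was the lowest of the livers and the highest of the NP+tau muscles.

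Cytosolic ribosomal protein genes had slightly lower means in both tissues for 36 of 43 measured genes (19.5% of all genes) and higher in both for 0, with medians of -0.30 in liver and -0.10 in muscle. Only Rps4x (1 of 43) was lower at an unadjusted p under 0.05 for the average, against 3% of all genes. Its differences were -0.32 and -0.22, and its other probe set ran the other way. The share was 83.7% with all samples and 44.2% without NP replicate 1 in both tissues, and many of these genes are read by probe sets that match several near-identical copies.

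Heat shock chaperones had higher means with taurine in both tissues for 22 of 26 measured genes, against 17.1% of all genes, and lower in both for 0. The medians were 0.22 in liver and 0.64 in muscle, and 6 of 26 had an unadjusted p under 0.05 for the average, all higher (1.71% of all genes). Without liver NP+tau replicate 1 this count was 20 of 26 (4.22% of all genes), with a liver median of 0.61, and without liver NP replicate 1 it was 3 of 26 (1.41%). Hsph1, a nucleotide exchange factor for Hsp70, was at 7.27, 7.54 and 8.998 in NP liver and 7.91, 10.45 and 9.19 in NP+tau liver, and at 8.70, 8.56 and 8.90 against 9.45, 10.39 and 9.51 in muscle. The groups overlapped in liver and were apart in muscle (differences 1.25 and 1.06, average 1.16 ± 0.41). Hspa1b, the inducible Hsp70, was at 8.82, 8.61 and 10.17 in NP liver and 8.30, 12.13 and 10.77 in NP+tau liver, and at 8.14, 7.72 and 8.56 against 8.62, 11.67 and 8.96 in muscle. NP+tau replicate 2 was the highest of its tissue for both genes in both tissues. Dnajb1, an Hsp40 cochaperone, differed by 0.58 and 0.80 (average 0.69 ± 0.23), Hsp90aa1, the inducible Hsp90, by 0.72 and 1.004 (average 0.86 ± 0.29) and Dnaja1, another Hsp40, by 0.40 and 1.03 (average 0.72 ± 0.27). The mean over the 26 genes was 9.22, 9.10 and 9.51 in NP liver and 8.82, 10.15 and 9.61 in NP+tau liver, and 9.49, 9.40 and 9.78 against 9.91, 10.80 and 10.01 in muscle. Muscle was therefore apart by replicate and liver was not. Without NP+tau replicate 2 in both tissues the share of chaperones higher in both was 30.8%, against 84.6% with it.

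Stress-induced chaperone genes are known for a promoter element, the heat shock element, an array of inverted GAA units bound by heat shock factors. The motif searched was GAA, any 2 bases, TTC, any 2 bases, GAA, on both strands. It was found in the promoters (250 bases before to 50 after the start) of 5 of the 22 measured chaperones with a promoter sequence, Chordc1, Dnajb6, Hspd1, Hspe1 and Hsph1, and in 198 of 32851 promoters in all (0.603%) or 59 of the 10303 measured genes with a promoter (0.573%). A match is a description of the letters and not a site shown to be used. The promoters of 4 of these genes are shown from 100 bases before to 30 after the start, 5′ to 3′ on the gene's strand, with the matches in capitals. They come from RefSeq on GRCm38.p6 and lie at chr9:18292167-18292296 (Chordc1, plus strand), chr5:29735798-29735927 (Dnajb6, plus strand), chr1:55088048-55088177 (Hspe1, plus strand) and chr5:149636286-149636415 (Hsph1, minus strand).
Chordc1: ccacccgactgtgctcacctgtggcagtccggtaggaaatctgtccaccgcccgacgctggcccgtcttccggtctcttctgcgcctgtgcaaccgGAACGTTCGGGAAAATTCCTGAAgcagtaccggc
Dnajb6: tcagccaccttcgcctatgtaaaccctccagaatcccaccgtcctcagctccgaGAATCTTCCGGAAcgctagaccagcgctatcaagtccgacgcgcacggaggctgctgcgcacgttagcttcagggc
Hspe1: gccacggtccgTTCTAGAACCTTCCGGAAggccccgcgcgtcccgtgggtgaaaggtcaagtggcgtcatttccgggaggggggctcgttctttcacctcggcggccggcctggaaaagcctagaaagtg
Hsph1: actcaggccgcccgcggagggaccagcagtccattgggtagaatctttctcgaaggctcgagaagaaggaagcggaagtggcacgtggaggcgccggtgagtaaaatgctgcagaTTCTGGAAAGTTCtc
Chordc1, a cofactor of Hsp90 with 3 overlapping matches, differed by 0.31 in liver and 1.01 in muscle. Hspe1, the mitochondrial cochaperonin with 2, differed by 0.15 and 0.40. Hsph1 and Dnajb6, another Hsp40, had 1 match each, and Dnajb6 differed by -0.18 and 0.07, so genes with the motif did not all have higher means.

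Of 4 lists of mitochondrial pathways, 3 had higher means in both tissues for over 50% of their genes, by small amounts, and the TCA cycle list did not, with 7 of 20 higher in both and 10 of 20 lower in liver and higher in muscle. Without liver NP+tau replicate 1, 16 of 20 TCA cycle genes were higher in both. Fatty acid beta-oxidation and carnitine shuttle genes were higher in both for 17 of 25, with medians of 0.19 in liver and 0.30 in muscle, and 5 of 25 had an unadjusted p under 0.05 for the average, all higher (1.71% of all genes). That count was 9 of 25 without liver NP+tau replicate 1 (4.22% of all genes) and 1 of 25 without liver NP replicate 1 (1.41%). Cpt2, the inner membrane carnitine palmitoyltransferase, was at 10.35, 10.92 and 11.04 in NP liver and 11.03, 11.93 and 11.22 in NP+tau liver, and at 9.29, 9.38 and 9.51 against 10.17, 9.89 and 10.03 in muscle. The muscle groups were apart and 1 supplemented liver fell just below the highest control (differences 0.62 and 0.64, average 0.63 ± 0.17). Slc25a20, the carnitine-acylcarnitine carrier, differed by 0.51 and 0.41, Crat, the carnitine acetyltransferase, by 0.61 and 0.30, Etfdh, which passes electrons to ubiquinone, by 0.45 and 0.36 and Acads, the short-chain acyl-CoA dehydrogenase, by 0.21 and 0.45. The share higher in both was 68% with all samples and 44% without NP replicate 1, whether in liver or in both tissues.

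Mitochondrial ribosomal proteins were higher in both tissues for 46 of 77 genes and lower in both for 4, with medians of 0.14 and 0.15, and 4 of 77 had an unadjusted p under 0.05 for the average, all higher (1.71% of all genes), 8 of 77 without liver NP+tau replicate 1 (4.22%) and 7 of 77 without liver NP replicate 1 (1.41%). Mrpl1 differed by 0.36 and 0.41 and Mrpl36 by 0.17 and 0.46. Oxidative phosphorylation subunits were higher in both for 42 of 75 (17.1% of all genes) and lower in both for 6, with medians of 0.16 and 0.09. In each direction 1 of 75 passed the unadjusted test (Ndufb2, 0.46 and 0.33, and Cox7a2l, -0.61 and -0.09). Of all genes 1.71% passed it higher and 3% lower, so neither count was above that share. The share of these subunits that were higher in both was 56% with all samples and 22.7% without NP replicate 1 in both tissues. For the mitochondrial ribosome it stayed between 46.8% and 68.8% when samples were left out (59.7% with all).

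Among genes with a probe set that was higher without overlap in both tissues, the smallest p of the average was that of Nrp1, neuropilin 1, a co-receptor for VEGF and semaphorins. It was at 9.30, 9.46 and 9.41 in NP liver against 10.25, 9.82 and 10.11 in NP+tau liver, and at 9.39, 9.76 and 9.77 against 10.16, 9.94 and 10.33 in muscle (differences 0.67 and 0.51, average 0.59 ± 0.13), and 3 of its 4 probe sets were higher in both. Uqcr10, a subunit of respiratory complex III, was at 8.12, 8.56 and 8.57 against 9.46, 8.97 and 8.84 in liver and at 8.57, 9.06 and 8.98 against 9.71, 9.53 and 9.44 in muscle. Its 3 probe sets were all higher in both tissues, by 0.21 to 0.68 in liver and 0.12 to 0.69 in muscle. Hsdl2, a peroxisomal dehydrogenase-like protein, differed by 0.70 and 0.66, Abcb6, a porphyrin transporter, by 0.51 and 0.46, Nolc1, a nucleolar phosphoprotein, by 0.80 and 0.40, Cacybp, a calcyclin-binding adaptor, by 0.45 and 0.61 and Dtx3l, an E3 ubiquitin ligase, by 0.69 and 0.46. Brix1, a ribosome biogenesis factor, differed by 0.66 and 0.77, with its other probe set at -0.27 in liver. The named Brix1 probe set was at 3.94, 3.61 and 4.40 in NP muscle and 4.42, 4.81 and 5.02 in NP+tau muscle. It reached the limit for use in muscle only in NP+tau samples, so its higher mean there does not support a direction.

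**Figure D3:**
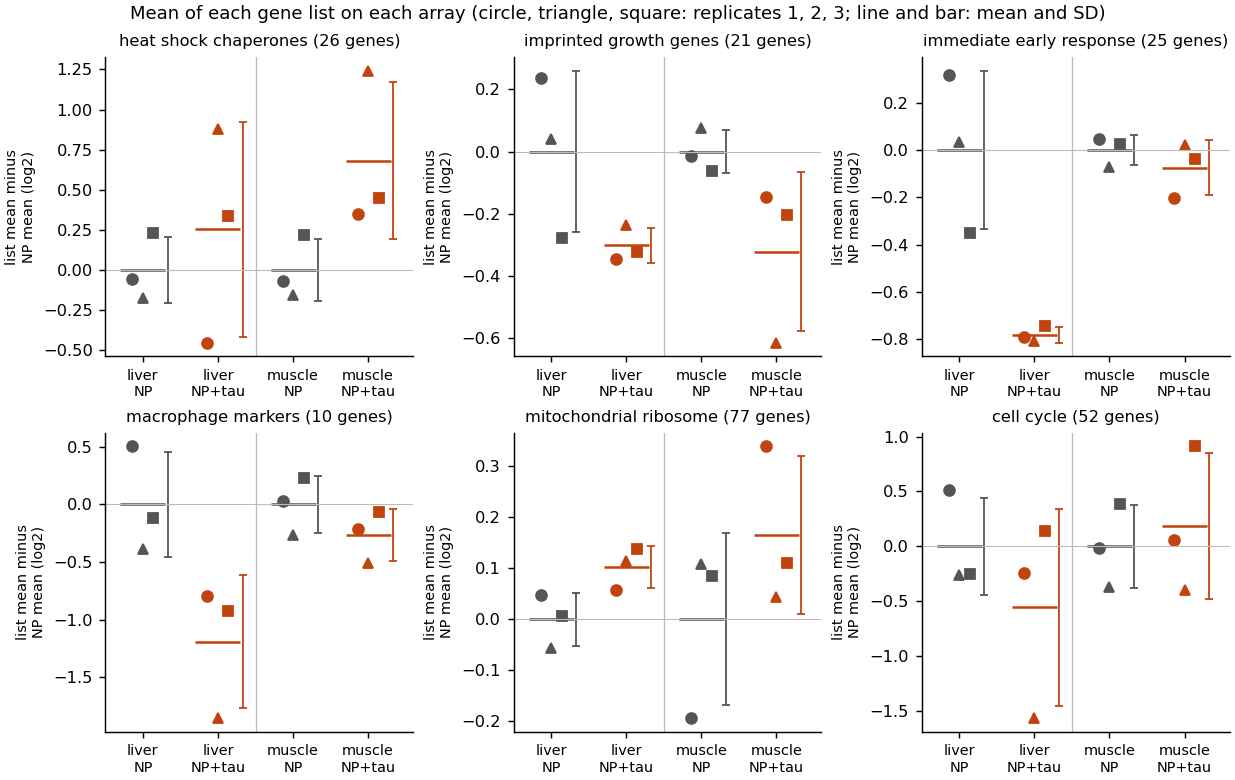
Mean of a gene list on each array minus the mean of the NP group of that tissue (y axis, log2), for 6 lists, where circle, triangle and square are replicates 1, 2 and 3, the line is the group mean and the bar its SD (n = 3). Immediate early genes and macrophage markers separate in liver and overlap in muscle, chaperones separate in muscle with replicate 2 the highest, and cell cycle genes spread widely within both groups.

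On the brightest probe set, genes with opposite differences and no overlap in either tissue numbered 77 of 12803 with higher liver and lower muscle means (0.601%) and 84 with the reverse (0.656%). Again the named genes could come from another probe set. Of the second kind, Tnfrsf21, the death receptor DR6, was at 6.33, 5.89 and 6.12 in NP liver and 5.08, 5.47 and 5.19 in NP+tau liver, and at 6.62, 6.98 and 7.47 against 8.16, 8.28 and 8.07 in muscle. The differences were -0.86 and 1.15 (muscle minus liver 2.01 ± 0.31), and the second probe set ran the same way. Ldhb, the heart type subunit of lactate dehydrogenase, was at 6.14, 5.57 and 5.70 in NP liver against 3.84, 4.13 and 4.65 in NP+tau liver, and at 9.47, 9.74 and 9.83 against 10.31, 10.50 and 9.85 in muscle. All 4 Ldhb probe sets were lower in liver (-1.60 to -0.52) and higher in muscle (0.44 to 0.55), with a muscle minus liver difference of 2.14 ± 0.35 on the named one. Adamts1, a secreted metalloprotease that cleaves proteoglycans, was at 7.65, 7.77 and 7.33 against 6.46, 6.92 and 7.18 in liver and at 7.84, 7.88 and 7.98 against 8.67, 8.60 and 8.25 in muscle (1.34 ± 0.29).

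Other genes of this kind were named by the same order. Apbb2, an adaptor of the amyloid precursor protein, differed by -0.64 in liver and 0.80 in muscle with both probe sets in the same directions, and Heg1, an endothelial membrane protein, by -0.54 and 0.71. Zdhhc13, a palmitoyltransferase, differed by -0.29 and 0.70. Rtn4, the reticulon Nogo, differed by -1.07 and 0.83, and 3 of its 5 probe sets ran that way.

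In the other direction, Slco2b1, an organic anion uptake carrier, was at 7.60, 7.85 and 8.68 in NP liver and 8.85, 8.92 and 9.07 in NP+tau liver, and at 8.12, 7.88 and 7.63 against 7.57, 7.45 and 7.58 in muscle. The groups just failed to overlap in muscle, the differences were 0.91 and -0.34 (muscle minus liver -1.25 ± 0.35), and 2 of 3 probe sets ran that way. Ttc39b, a tetratricopeptide protein of hepatic lipid metabolism, was dim, at 4.85, 4.66 and 4.85 against 5.24, 5.22 and 5.23 in liver and at 4.49, 4.79 and 4.51 against 4.27, 4.18 and 4.22 in muscle (-0.82 ± 0.20, 2 of 3 probe sets). Acsf2, an acyl-CoA synthetase, differed by 0.68 and -0.25, Extl3, a heparan sulphate glycosyltransferase, by 0.53 and -0.35, and Selenov, a selenoprotein, by 0.39 and -0.52. These signals lay mostly between 4 and 7 in log2 units, where 4.60 in liver and 4.49 in muscle was the limit for a probe set to be used. All NP+tau muscle signals of Ttc39b lay below this limit, as did all NP liver signals of Extl3 (4.37, 4.34 and 4.36). Each was thus used in that tissue only through the group where it was high, so those differences do not support a direction. Prkcz, an atypical protein kinase C, differed by 0.74 and -0.47, with all 3 probe sets in those directions and an overlap in muscle.

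**Figure D4:**
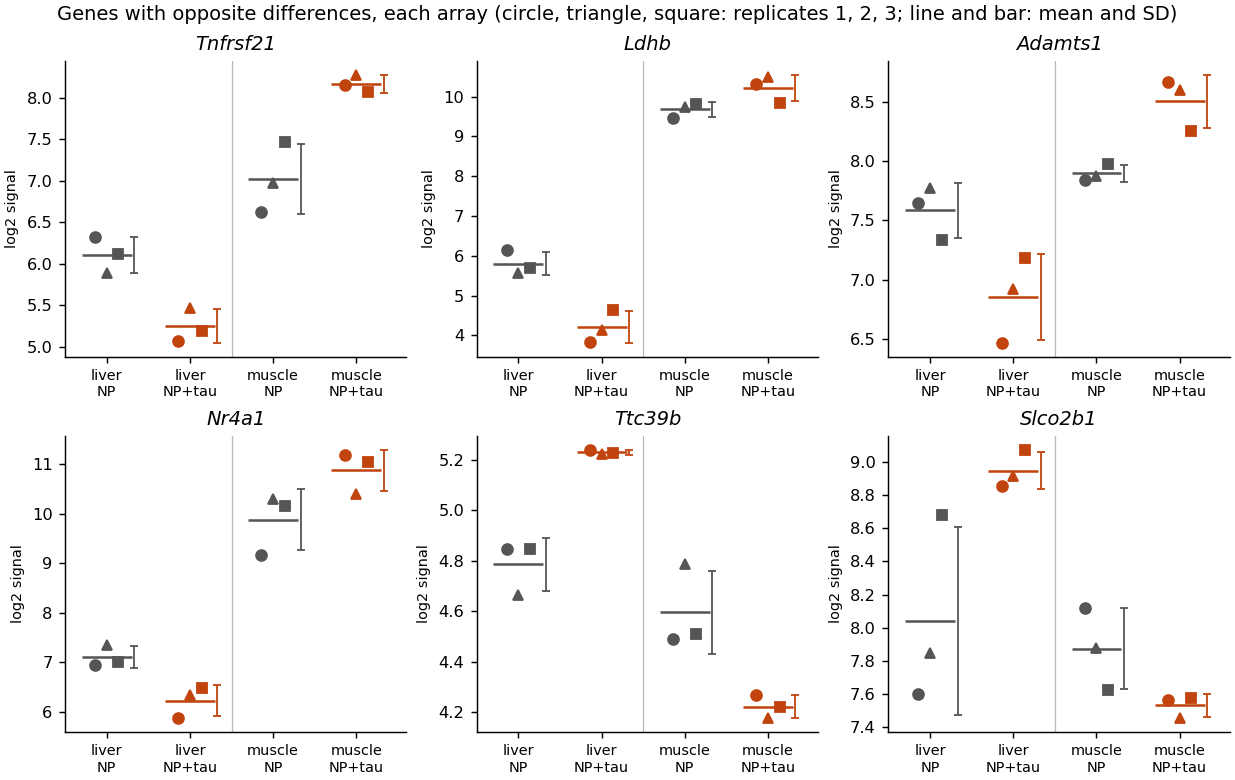
log2 signal (y axis) of 6 genes with opposite differences on each array by tissue and group, where circle, triangle and square are replicates 1, 2 and 3, the line is the group mean and the bar its SD (n = 3). Tnfrsf21, Ldhb, Adamts1 and Nr4a1 lie lower in NP+tau liver and higher in NP+tau muscle, and Ttc39b and Slco2b1 the reverse, with no overlap between NP and NP+tau of a tissue.

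Some genes differed in 1 tissue with little difference in the other. Itga1, the collagen-binding integrin alpha 1, was at 5.04, 5.13 and 5.58 in NP muscle and 6.50, 6.37 and 6.53 in NP+tau muscle, with a liver difference of -0.10, but its other probe set was at -0.01 in muscle. Pappa, the protease that frees IGF from its binding proteins, was at 5.68, 5.20 and 5.77 against 4.06, 4.66 and 4.55 in muscle, with a liver difference of 0.12 at a dim signal. Amot, angiomotin, a cell junction protein, differed by -1.04 in muscle and 0.05 in liver, although its 3 probe sets ranged from -0.95 to 0.05 in liver. Hnrnpab, an RNA-binding protein, differed by -1.21 in muscle and 0.06 in liver on 1 of 5 probe sets, and the other 4 ran differently. Taking the 6 genes of smallest p in each direction for each tissue alone, the other tissue had the same sign for 3 of the 6 higher in liver, for 4 of the 6 lower in liver, for 5 of the 6 higher in muscle and for 3 of the 6 lower in muscle. Among these, Myog, a myogenic transcription factor, differed in muscle with 6.20, 6.39 and 6.35 against 8.10, 7.84 and 7.58, and Nudt7, a peroxisomal coenzyme A hydrolase, had the smallest p of those higher in liver, with 8.42, 9.75 and 9.68 against 11.55, 10.86 and 10.69. Myog was near the limit in liver (difference 0.27), and Nudt7 differed by 0.20 in muscle.

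Several groups had lower liver and higher muscle means, the pattern that 38% of all genes had. Cell cycle genes had it for 36 of 52, with medians of -0.47 in liver and 0.15 in muscle. Only 1 of 52 had an unadjusted p under 0.05 for the tissue difference, a smaller share than the 8.6% of all genes. That gene was Gmnn, the replication inhibitor geminin, which differed by -0.60 and 0.61. The mean over the 52 genes was 7.78, 7.003 and 7.02 in NP liver and 7.03, 5.70 and 7.41 in NP+tau liver, and 6.34, 5.98 and 6.74 against 6.41, 5.96 and 7.27 in muscle. The groups overlapped in both tissues. The share with this pattern was 69.2% with all samples, 44.2% without NP replicate 2, 38.5% without NP+tau replicate 2 and 26.9% without NP+tau replicate 3, each left out in both tissues. Muscle NP+tau replicate 3 was also the array with the highest B cell markers, a mean of 8.89 over 3 genes against 5.04 to 6.00 in the other muscles, and their part in the muscle difference was not tested.

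Collagen and matrix genes were lower in both tissues for 18 of 42 and lower in liver and higher in muscle for 21, with medians of -0.72 and 0.03. At an unadjusted p under 0.05 of the average, 9 of 42 were lower and 0 higher (3% and 1.71% of all genes), and the muscle difference was above the liver difference for 4 of 42 (6.02% of all genes). Without liver NP replicate 1, 5 of 42 were lower (1.91% of all genes) and the muscle difference was above for 2 of 42 (2.9%). Col6a1, a chain of collagen VI, was at 8.40, 7.32 and 6.95 in NP liver and 5.24, 6.00 and 5.79 in NP+tau liver, apart from each other, and differed by -0.04 in muscle. Ccn1, a matricellular growth regulator, differed by -1.47 and -0.46 and all 4 of its probe sets were lower in both tissues. The share lower in liver and higher in muscle was 50% with all samples, 19.1% without NP replicate 1 and 33.3% without NP+tau replicate 3, each left out in both tissues.

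Interferon response genes were lower in liver and higher in muscle for 26 of 43, with medians of -0.15 and 0.31, and 6 of 43 had the muscle difference above the liver difference at an unadjusted p under 0.05 (6.02% of all genes). This pattern rested in part on liver NP+tau replicate 1, without which 19 of 43 were higher in both tissues, 19 were lower in liver and higher in muscle, and the liver median was 0.005. Gbp2, an interferon-induced GTPase, was at 6.41, 4.81 and 5.24 in NP liver and 4.42, 4.36 and 4.91 in NP+tau liver, with 1 overlap, and at 4.95, 5.13 and 5.70 against 5.75, 5.96 and 6.04 in muscle, with none (differences -0.92 and 0.66). Ifit2, an interferon-induced protein that restricts viral translation, differed by -0.75 and 0.24. Bst2, the viral tether tetherin, was higher in both, by 0.32 and 0.46. The list mean in muscle was 6.10, 6.10 and 6.41 in NP and 6.38, 6.37 and 6.82 in NP+tau, highest in the array with the B cell markers.

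Nuclear pore and transport genes had lower liver and higher muscle means for 35 of 54, with medians of -0.18 and 0.23, and the muscle difference was above the liver difference at an unadjusted p under 0.05 for 5 of 54, near the 6.02% of all genes. Without liver NP replicate 1 it was 2 of 54 (2.9% of all genes). Without liver NP+tau replicate 1, 27 of 54 were lower in liver and higher in muscle (28.7% of all genes) and 17 higher in both (26.4%). The liver median was then -0.06. Nup93, a scaffold nucleoporin, differed by -0.78 and 0.94 and Kpna2, an importin alpha, by -0.52 and 0.93. Proteasome genes had the pattern for 26 of 45, with medians of -0.05 and 0.27. Psmd10, a regulatory particle chaperone, differed by -0.64 and 0.55, Psmb8, an interferon-induced catalytic subunit, by -0.76 and 0.48, and Psma1, a core subunit, by 0.15 and 0.89. With each array centred on its median the shares were 40.7% instead of 64.8% for nuclear pore genes and 22.2% instead of 57.8% for the proteasome. The proteasome share was 13.3% without liver NP+tau replicate 1, when 36 of 45 genes were higher in both tissues, 31.1% without NP replicate 1 and 35.6% without NP+tau replicate 2 in both tissues, and 33.3% without liver NP replicate 1.

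**Figure D5:**
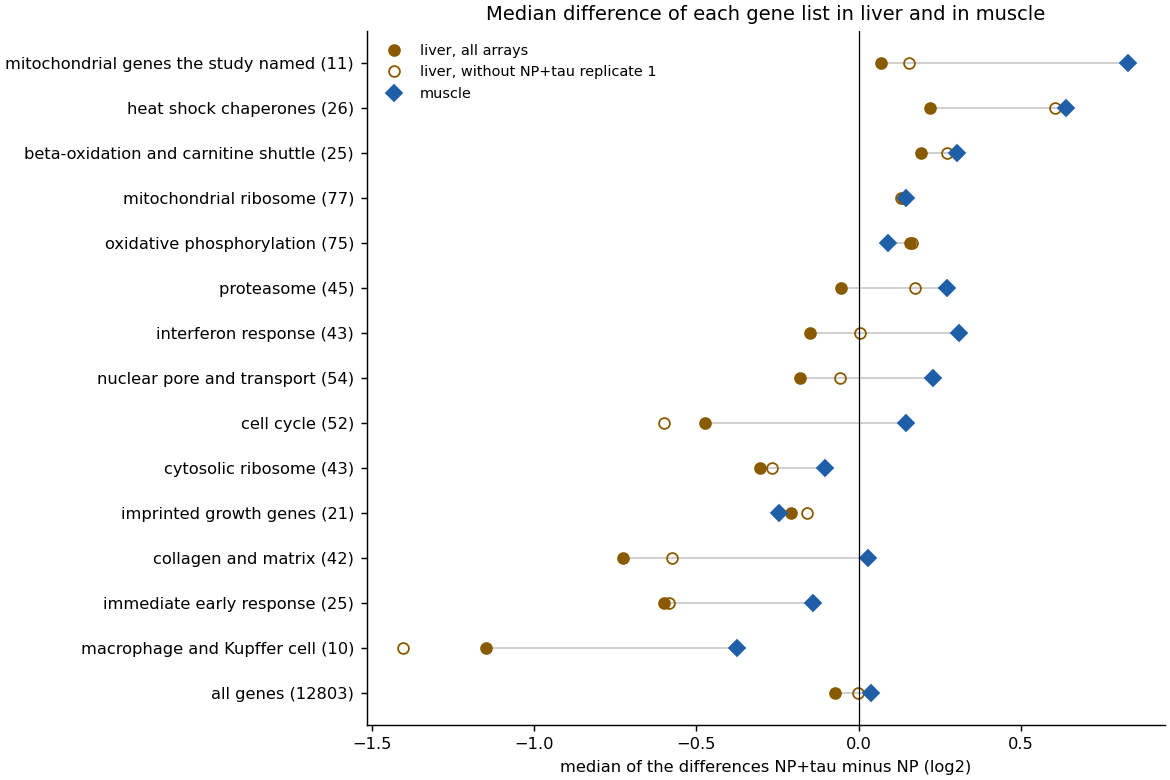
Median of the differences NP+tau minus NP (x axis, log2) over the genes of 14 lists (y axis, number of genes in parentheses), where filled circles are liver with all arrays, open circles liver without NP+tau replicate 1 and diamonds muscle. Chaperones and the 4 mitochondrial lists drawn lie above 0 in both tissues, macrophage, immediate early, imprinted and cytosolic ribosome genes below 0 in both, and the proteasome median in liver crosses from -0.05 to 0.17 without that array.

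Genes that make, carry or use taurine showed no common direction. Of 22 measured, 4 were higher in both tissues, 4 lower in both, 4 higher in liver and lower in muscle and 10 the reverse, with medians of -0.10 and 0.04. The unadjusted test of the average was passed by 0 of 22 (4.71% of all genes). Without liver NP+tau replicate 1 these counts were 9, 1, 7 and 5 and the liver median turned to 0.18. Slc6a6, the taurine transporter, was at 10.66, 9.23 and 9.66 in NP liver and 9.14, 8.91 and 8.84 in NP+tau liver, and at 10.07, 10.08 and 10.34 against 9.91, 10.90 and 9.76 in muscle. The livers did not overlap (-0.89) and the muscles did (0.03). Csad, the decarboxylase that gives hypotaurine, differed by -0.68 in liver, where NP+tau replicate 1 alone lay below the controls, and by 0.07 in muscle, and Cdo1, the cysteine dioxygenase before it, by -0.16 and -0.25. Slc5a3, the carrier of the osmolyte inositol, differed by -0.71 and 0.80.

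The study singled out 11 mitochondrial genes from these muscle samples, so their muscle values are not independent evidence of a direction, and liver was the tissue in which they had not been chosen. On the brightest probe set of each gene, 7 of the 11 had higher means in liver too and 4 had lower ones, and on the probe set of smallest muscle p it was 8 and 3. The brightest probe sets had medians of 0.07 in liver and 0.83 in muscle. Coq10b, a coenzyme Q-binding protein, was at 6.07, 6.30 and 6.44 in NP muscle and 7.84, 7.67 and 8.09 in NP+tau muscle, and at 7.54, 8.43 and 7.95 against 8.04, 7.58 and 8.99 in liver. The muscles were apart by 1.60 and the livers overlapped with a difference of 0.23, while on its brightest probe set the differences were -0.14 in liver and 0.91 in muscle. Slc25a25, an ATP-Mg/phosphate carrier, differed by 0.14 in liver and 1.32 in muscle, Msrb2, a methionine sulphoxide reductase, by 0.16 and 1.17, Ung, uracil-DNA glycosylase, by 0.09 and 0.93, and Lactb2, a mitochondrial endoribonuclease, by 0.32 and 0.87. The other Slc25a25 probe set was at -0.06 in muscle. Without liver NP replicate 1 the liver difference turned to -0.71 for Slc25a25, -0.07 for Msrb2, -0.09 for Ung and -0.05 for Lactb2. Cpt2 had nearly equal differences in both tissues, as given above. Mrpl50, a mitochondrial ribosomal protein, differed by -0.59 in liver, where NP+tau replicate 1 was at 5.21 and the other 5 samples between 7.01 and 7.62. The share of the 11 higher in both tissues was 63.6% with all samples, 27.3% without NP replicate 1 in both tissues or in liver alone, and 36.4% without NP+tau replicate 3 in both tissues.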

How the data were processed

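RNA of 12 tissue samples (liver and quadriceps of 3 NP and 3 NP+tau offspring) was hybridised to Affymetrix mouse arrays. The deposited values are log2 expression signals of 45101 probe sets, which the authors computed by RMA (justRMA in Bioconductor) and quantile-normalised separately by tissue, so levels were not compared between tissues. The 64 control probe sets were left out. A probe set was used in a tissue if its highest value reached the 35th percentile of such values (29274 in each tissue, 25622 in both). The platform annotation gave 1 symbol for 34958 probe sets, several for 932 and none for 9211. limma 3.58.1 (R 4.3.3; lmFit, eBayes) fitted 4 group means to the 12 arrays, with contrasts for the average of both tissue differences and for muscle minus liver, and 6 arrays for each tissue alone, with Benjamini-Hochberg adjustment over all probe sets. The precision is limited by 3 arrays a group. Lists used the brightest probe set of a gene, and named genes the probe sets without overlap between diets that had the smallest p, up to 10 shared, 8 opposite and 6 of a single tissue in each direction and 4 of a list, and 11 genes the study named; further members were named after their values were seen. The members and the 44 gene lists were chosen with earlier results of these data known, and list counts were not tested. The fit was checked on simulated data. Figures were drawn with matplotlib 3.10.9. Alternatives were other filters, centring, array weights, a replicate block, Xist as a covariate and leaving out samples.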

Additional observations from a re-analysis of the deposited data

Results flagged for a closer look

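In all, 16 named genes had, on the probe set chosen for each, every NP+tau sample above every NP sample in one tissue and below every NP sample in the other. Other probe sets did not always run the same way. The directions held in both tissues for 2 of 5 probe sets of Nav2, 1 of 2 of Poc1b and 3 of 4 of Nsmf. Ttc39b in muscle and Extl3 in liver reached the limit for use only in the group where they were high. With the NP+tau samples higher in liver and lower in muscle, the muscle minus liver difference on the log2 scale was -0.82 for Ttc39b, -0.91 for Selenov, -1.25 for Slco2b1, -0.74 for Nsmf, -0.88 for Extl3, -0.93 for Acsf2, -0.99 for Nav2 and -0.69 for Poc1b. With the reverse pattern it was 2.01 for Tnfrsf21, 2.14 for Ldhb, 1.44 for Apbb2, 1.34 for Adamts1, 1.90 for Rtn4, 0.99 for Zdhhc13, 1.87 for Nr4a1 and 1.25 for Heg1. The difference between the tissues was tested for each by the interaction in limma, and the adjusted p was 0.542 for all 16. By this description 161 of 12803 genes were opposite without overlap, counted on the brightest probe set of each gene, and 83 of 12803 were shared without overlap.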

How the results depend on the processing

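For 100 named genes the sign of the tested contrast, the average or the tissue difference, was the same under all 2593 alternatives run. These genes, and for many of them the contrast, were chosen by the smallest p in these same data. Some alternatives, such as the filters, also leave the estimate unchanged, so a stable sign was largely given in advance. The sign within a tissue was less stable: leaving out 1 array turned it for 15 of these genes in liver and 2 in muscle, as for Mrpl50 in liver, from -0.59 to 0.18 without NP+tau replicate 1. Groups that do not overlap cannot turn in this way. At an adjusted p of 0.05 in limma, 24 of these alternatives passed, 23 of them with Xist as a covariate and 1 for Egr1. With Xist as a covariate the number of probe sets called was 3427 for the tissue difference, 2317 for the average and 9449 for liver, against 0 without it. By construction the diet term then rests on NP+tau replicate 1, the supplemented sample with Xist at the level of the controls, which in liver is the array that stood apart. Array quality weights gave 8 calls in liver. Leaving out samples gave 0 to 2 calls for the tissue difference, 0 to 11 for the average, 0 to 9 in liver and 0 to 8 in muscle. Probe sets without overlap in the same direction numbered 178, and 83 with the brightest probe set of each gene. In opposite directions they numbered 292, and 531 without a filter, 185 with the stricter filter and 161 with the brightest probe set of each gene. With 1 array left out, or 1 of each tissue, which alone makes overlap rarer, they numbered 239 to 853 and 358 to 1114. The correlation across probe sets ranged from -0.19 to 0.12 and the share of the same sign from 36.6% to 49.0%. Centred on array medians, 40.7% of nuclear pore and 22.2% of proteasome genes were lower in liver and higher in muscle. Leaving out samples, the share of a list in its leading class ranged from 44.2% to 88.4% for the cytosolic ribosome, 30.8% to 88.5% for chaperones, 44% to 76% for beta-oxidation, 22.7% to 72% for oxidative phosphorylation, 19.1% to 61.9% for collagen and matrix, 26.9% to 82.7% for cell cycle, 13.3% to 68.9% for the proteasome and 27.3% to 81.8% for the 11 genes of the study. The cause was not tested. For lists, no muscle array was left out alone.

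Replicate numbers are shared by all groups, but the labels do not say that a number marks an animal. Deviations of same-numbered liver and muscle arrays from their group means correlated at 0.22 to 0.24 for 4 of 6 pairs and at 0.01 and -0.04 for the other pairs, and 4 of 6 correlated best with their own number. With the replicate block (consensus correlation 0.148), or with values taken within a number, 0 probe sets were called for the average and 0 for the tissue difference, as without the block.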

Other observations

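Cholesterol synthesis and uptake genes were higher in liver with little difference in muscle. Of 24 measured, 14 had higher means in both tissues and 6 higher in liver and lower in muscle, with medians of 0.59 in liver and 0.06 in muscle. At an unadjusted p under 0.05 of the average in limma, 0 of 24 were higher (1.71% of all genes). Hmgcs1, which commits acetyl-CoA to the mevalonate pathway, differed by 0.95 and 0.10, and Idi1, an isoprenoid isomerase, by 1.01 and 0.27. The list mean was 8.16, 9.80 and 9.70 in NP liver and 9.69, 9.15 and 10.10 in NP+tau liver, so the liver difference rested on NP replicate 1. Mylip, which degrades the LDL receptor, was lower in both tissues, by -1.39 and -1.05.

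MHC class II genes were lower in liver and higher in muscle for 7 of 12, with medians of -0.78 and 0.19. H2-Aa, a class II alpha chain, differed by -1.71 in liver and 1.83 in muscle and Cd74, the invariant chain, by -1.20 and 1.42. The list mean was 7.15, 6.92 and 7.45 in NP muscle and 7.24, 7.15 and 8.74 in NP+tau muscle. The high value belonged to muscle NP+tau replicate 3, where the B cell receptor genes Cd79a and Cd79b were at 8.46 and 8.62 and at most 5.29 in the other muscles. Over 20 other lists with at least 10 measured genes, the share with the same sign in both tissues ran from 26.7% for xenobiotic metabolism to 78.6% for complement and coagulation, and 0 of the lists held a gene with an adjusted p under 0.05.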
